A study of Mus musculus with 16 samples.

Results

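The genes described here are 10 genes of protein folding and stress in the endoplasmic reticulum (ER): Hspa5, Hsp90b1, Dnajb9, Dnajc3, Sdf2l1, Herpud1, Pdia4, Pdia6, Atf4 and Ddit3. They were chosen by name, as all probe sets whose platform annotation gave one of these symbols, and they are 10 of 18194 named genes on the array. Together they had 23 probe sets. Of these, 21 passed the filter on low signal, at least 1 for each gene, while 1 probe set each of Pdia4 and Atf4 did not.

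RNA came from 4 groups of 4 arrays, all from mice 5 months old and described by the submitters as biological replicates. Sle2c1_B1a and B6_B1a were B1a cells of the peritoneal cavity, and Sle2c1_Bs and B6_Bs were splenic B cells (Bs). B6 mice are C57BL/6, and B6.Sle2c1 mice are a congenic strain that carries the Sle2c1 lupus susceptibility segment of NZM2410 on the same background. B1a cells were what remained after macrophages had been left to adhere in a 2 h culture, T cells had been depleted with Thy1.2 and CD3ε antibodies and CD5 positive cells selected, giving 80% B220int CD5+ cells. Bs cells were CD43- cells from a kit and over 90% B220hi. The splenic protocol names no such culture, so cell type and preparation cannot be told apart in any comparison of B1a with Bs cells. The labels do not say whether an array holds 1 mouse or a pool, nor the sex of the mice, and p-values measure only the spread between these samples.

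Proteins that will be secreted fold in the ER, and an excess of unfolded chains there starts the unfolded protein response. In mammals this response has several sensors. IRE1 (gene Ern1) splices the message of the transcription factor Xbp1, PERK (Eif2ak3) slows translation and lets ATF4 be made, and ATF6 is cut in the Golgi to release a transcription factor. Their targets include chaperones, disulfide isomerases and the machinery that removes misfolded proteins. B cells that become antibody-secreting plasma cells enlarge their ER and raise many of these genes, with Xbp1 and Prdm1 (Blimp-1) needed for full secretion. B1a cells are known as a main source of natural IgM.

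The values are the authors' deposited scores, a log-like signal of unstated base and scaling. Differences are given in units of this score, never as folds, and the level of one probe set is not set against that of another. Signal too weak to rank was set to a floor of 0.495 units, which is the middle of the arrays' own 40th percentiles. The summed level of 8 B1a markers was 11.7 to 14.8 units in Sle2c1_B1a and 13.7 to 14.1 in B6_B1a. In Sle2c1_Bs it was 5.96 to 6.46 and in B6_Bs 5.75 to 7.19. Cd5, Bhlhe41 and Il10 were at the floor on all 8 Bs arrays. They passed the filter through the B1a arrays, and the cells were selected on CD5, so the sum had to be higher and is a description. Singly, 4 of 8 markers were called higher in B1a cells in Sle2c1 and 5 of 8 in B6 (11% and 9.02% of all features). These counts are a description too. In B6 they include Il10 and Cd5, with all 4 B6_Bs arrays at the floor. Cdkn2c, the gene in the title of the series, which encodes a Cdk4/6 inhibitor, checked the congenic segment. Sle2c1 minus B6 was -0.60 for B1a (limma adjusted p = 0.00392) and -0.89 for Bs (adjusted p = 0.00114). The strain groups did not overlap, as for 8.38% of all features in B1a and 2.34% in Bs cells. With 2 Sle2c1_B1a and 3 Sle2c1_Bs arrays at the floor, both differences are lower limits in size. The arrays Sle2c1_B1a 4, B6_Bs 3 and B6_Bs 1 lay apart from their groups on principal components. Sle2c1_Bs 3 lay at the edge of its group on the first (54.6, against 24.4 to 40.5) and was left out with Sle2c1_B1a 4 and B6_Bs 3 in 1 alternative. Preparations also held other cells: the summed level of 16 macrophage markers was 15.2 to 16.6 units in Sle2c1_B1a, 19.9 to 34.7 in B6_B1a, 16.9 to 18.9 in Sle2c1_Bs and 19.8 to 20.8 in B6_Bs, where 7.92 would mean all at the floor. The macrophage genes Timd4, C1qb, C1qc, Csf1r, Apoe and Vsig4 were at the floor on all Sle2c1_B1a arrays. For 7 mast cell markers it was 6.85 to 10.8 in Sle2c1_B1a, 10.1 to 12.9 in B6_B1a, 3.82 to 4.96 in Sle2c1_Bs and 3.77 to 4.47 in B6_Bs, where 3.46 would mean all at the floor.

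Between cell types, the 10 genes did not move as a block. Dnajb9 was higher and Sdf2l1 lower in B1a than in Bs cells of both strains, while the brightest probe sets of the chaperones Hspa5 and Hsp90b1 differed by at most 0.03 units between B1a and Bs cells, without passing the test. Between strains, none of the 10 genes passed the test in either cell type by the probe set that stood for the gene.

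The promoters of the genes are shown because this family is known for shared stress elements in them. RefSeq windows of assembly GRCm38.p6, running from 250 bases before to 50 bases after the annotated start, were found for all 10 genes. The deposited data name no genome build, and the coordinates below belong to that assembly alone. None of the 10 genes is on chromosome 4, which holds Cdkn2c. Both strands were searched for the ER stress response element ERSE (CCAAT and CCACG with any 9 bases between them), for ERSE-II (ATTGG and CCACG with any 1 base between them), for the core of the unfolded protein response element (UPRE, TGACGTG) and for the composite element read by ATF4 with a C/EBP partner (CARE, TGATGNAAT). In the lines that follow, lower case is the window and capitals mark the fixed letters of a match. Hspa5 is given in full before its start because it carries 2 elements, and Dnajb9 and Sdf2l1 because they are the genes that differed most clearly between cell types. Neither Dnajb9 nor Sdf2l1 has capitals, since no match lay in its window.
Hspa5, chr2:34771840-34772089, plus strand: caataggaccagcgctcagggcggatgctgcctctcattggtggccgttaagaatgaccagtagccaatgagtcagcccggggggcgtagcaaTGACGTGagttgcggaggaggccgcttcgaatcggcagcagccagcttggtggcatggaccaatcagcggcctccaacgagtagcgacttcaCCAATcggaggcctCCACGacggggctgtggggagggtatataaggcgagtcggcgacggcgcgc
Dnajb9, chr12:44210069-44210318, minus strand: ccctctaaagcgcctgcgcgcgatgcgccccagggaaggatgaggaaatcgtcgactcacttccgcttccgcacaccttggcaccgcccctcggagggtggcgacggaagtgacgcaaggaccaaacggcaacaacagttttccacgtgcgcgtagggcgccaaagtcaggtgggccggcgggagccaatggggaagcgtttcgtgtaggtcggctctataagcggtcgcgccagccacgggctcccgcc
Sdf2l1, chr16:17132384-17132633, minus strand: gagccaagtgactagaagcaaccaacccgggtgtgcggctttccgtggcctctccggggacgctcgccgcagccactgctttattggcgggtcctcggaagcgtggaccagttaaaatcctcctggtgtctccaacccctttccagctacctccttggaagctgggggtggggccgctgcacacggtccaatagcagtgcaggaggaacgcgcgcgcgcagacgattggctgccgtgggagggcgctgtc

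The matches of the other genes are given with 10 bases on either side, read 5′ to 3′ along the gene.
Hsp90b1 ERSE, chr10:86705628-86705666, gene on the minus strand, element on the gene strand: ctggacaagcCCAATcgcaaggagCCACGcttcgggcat
Hsp90b1 ERSE, chr10:86705523-86705561, gene on the minus strand, element on the opposite strand: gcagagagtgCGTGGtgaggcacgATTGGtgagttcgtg
Dnajc3 ERSE, chr14:118937817-118937855, gene on the plus strand, element on the gene strand: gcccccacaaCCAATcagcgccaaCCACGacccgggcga
Pdia6 ERSE, chr12:17266481-17266519, gene on the plus strand, element on the gene strand: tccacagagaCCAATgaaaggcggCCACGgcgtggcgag
Herpud1 ERSE-II, chr8:94386367-94386397, gene on the plus strand, element on the gene strand: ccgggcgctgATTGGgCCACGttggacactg

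ERSE was found in 4 of the 10 windows (Hspa5, Hsp90b1, Dnajc3 and Pdia6), against 39 of 32851 windows of all RefSeq starts, or 0.119%. Hsp90b1 held it at 2 places, the one nearer the start on the opposite strand. ERSE-II was found in 1 window, that of Herpud1 (0.0365% of all windows), and the UPRE core in 1, that of Hspa5 (2.01% of all windows). CARE was found in 0 of the 10 windows (0.965% of all). No match overlapped another, and Dnajb9, Sdf2l1, Pdia4, Atf4 and Ddit3 held none. A match is a run of letters and says nothing of binding, and the absence of one says only that these letters are not in this window.

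**Figure D1:**
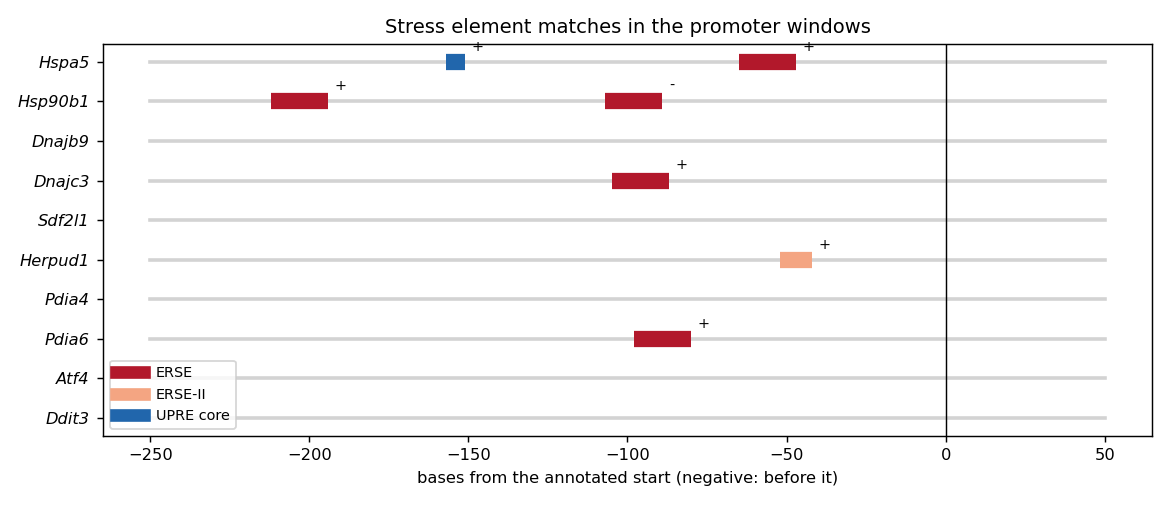
Matches of the stress elements in the promoter windows of the 10 genes, by distance in bases from the annotated start (vertical line), with + or - for the strand of the element relative to the gene. ERSE lies in Hspa5, Hsp90b1 (2 places), Dnajc3 and Pdia6, ERSE-II in Herpud1 and the UPRE core in Hspa5, all before the start.

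Hspa5 encodes BiP, the main Hsp70 chaperone of the ER lumen and a standard gauge of ER stress. Its probe set with the highest mean, 1427464_s_at, read 3.24, 3.35, 3.42 and 3.16 units on the 4 Sle2c1_B1a arrays, 3.32, 3.42, 3.34 and 3.40 on B6_B1a, 3.34, 3.31, 3.34 and 3.24 on Sle2c1_Bs and 3.46, 3.35, 3.35 and 3.34 on B6_Bs. The values of all 4 groups overlapped, and the lowest and highest group means, 3.29 ± 0.115 in Sle2c1_B1a and 3.38 ± 0.0569 in B6_Bs (SD, n = 4), lay within the spread of the arrays. B1a minus Bs was -0.02 (SE 0.0618, 95% interval -0.15 to 0.12, limma adjusted p = 0.883) in Sle2c1 and -0.01 (interval -0.14 to 0.13, adjusted p = 0.975) in B6. Sle2c1 minus B6 was -0.08 (interval -0.21 to 0.05, adjusted p = 0.559) in B1a cells and -0.07 (interval -0.20 to 0.06, adjusted p = 1) in Bs cells. In bulk RNA of this kind, fewer cells of a type and less RNA per cell cannot be told apart, here and below.

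The other probe sets of Hspa5 did not all read the same way. 1416064_a_at, like the first, differed by 0.01 to 0.03 at most between B1a and Bs cells, without passing. 1447824_x_at was 1.57, 2.03, 1.64 and 1.22 on Sle2c1_B1a and 1.69, 1.72, 1.67 and 1.90 on B6_B1a, but at the floor on all 4 Sle2c1_Bs arrays and on all B6_Bs arrays other than B6_Bs 1, which read 0.63. Every B1a array thus lay above every Bs array on this probe set. It passed the filter on low signal through the B1a arrays, where it is high, so it had to differ, and its B1a minus Bs differences of at least 1.12 in Sle2c1 and at least 1.22 in B6 are given as a description. Over the 21 probe sets, this one included, 2 were called higher and 2 lower in Sle2c1 (24.8% of all 35032 probe sets called) and 2 higher and 1 lower in B6 (19.9% called). A suffix x_at marks probes that can also match other transcripts, and which transcript this signal came from was not tested. With this probe set in the average of all 3, the difference of Hspa5 would turn to 0.37 in Sle2c1 and 0.41 in B6. The other 2 probe sets differed by -0.02 to 0.03, so this turn rests on 1447824_x_at and is also a description.

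Hsp90b1 encodes GRP94, the Hsp90 chaperone of the ER, which in B cells folds integrins and Toll-like receptors. 1438040_a_at read 3.01, 3.09, 3.07 and 2.95 on Sle2c1_B1a, 3.10, 3.22, 3.15 and 3.12 on B6_B1a, 3.08, 3.02, 3.06 and 3.03 on Sle2c1_Bs and 3.24, 3.12, 3.14 and 3.20 on B6_Bs. In each cell type all 4 Sle2c1 arrays lay below all 4 B6 arrays. The strain differences were -0.12 in B1a cells (SE 0.0519, unadjusted p = 0.0399 and adjusted p = 0.264 in limma) and -0.13 in Bs cells (unadjusted p = 0.0277, adjusted p = 1). An exact two-sided permutation test gave 0.0286 both times, and with 70 arrangements of 4 against 4 arrays no lower p is possible. Over all genes and unnamed features, groups did not overlap for 8.38% (B1a) and 2.34% (Bs). The second probe set, 1415889_a_at, differed by -0.03 in B1a and -0.09 in Bs cells without passing, and its strain groups overlapped. Neither strain difference passed the adjusted test. For 1438040_a_at, B1a minus Bs was -0.02 in Sle2c1 and -0.03 in B6 (adjusted p = 0.833 and 0.751). For 1415889_a_at it was -0.07 in Sle2c1 (adjusted p = 0.416) and -0.13 in B6 (unadjusted p = 0.0431, adjusted p = 0.136 in limma), where all 4 B6_B1a arrays lay below all 4 B6_Bs arrays.

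Dnajb9 encodes ERdj4, a J-domain partner of BiP that is strongly induced through IRE1 and Xbp1 and that in turn restrains IRE1. Its single probe set read 3.20, 3.17, 3.08 and 3.23 units on Sle2c1_B1a, against 2.87, 2.88, 2.90 and 2.81 on Sle2c1_Bs. In B6 mice it read 3.24, 3.23, 3.11 and 3.25 on B6_B1a, against 2.82, 2.88, 2.90 and 2.95 on B6_Bs. All 8 B1a arrays lay above all 8 Bs arrays. Within 1 strain, B1a and Bs groups did not overlap, in either direction, for 25.5% of all features in Sle2c1 and 22.4% in B6. The share of features with all 8 arrays apart in 1 direction was not counted. Dnajb9 was higher in B1a cells by 0.30 in Sle2c1 (SE 0.0542, limma adjusted p = 8.56e-04) and by 0.32 in B6 (SE 0.0542, adjusted p = 7.56e-04), with an exact permutation p of 0.0286 in each. The call held under each of 14 alternative settings and without any 1 of the 16 arrays. It was also made without Sle2c1_B1a 4, B6_Bs 3 and Sle2c1_Bs 3 together (0.30 and 0.32, adjusted p = 0.00524 and 0.00262). Dnajb9 was the single member higher in B1a cells in either strain, where 11% of all features were higher in Sle2c1 and 9.02% in B6.

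Dnajc3 encodes p58IPK, another J-domain partner of BiP, which also inhibits PERK. 1433887_at read 3.01, 3.02, 3.06 and 2.96 on Sle2c1_B1a, 3.12, 3.13, 3.02 and 3.09 on B6_B1a, 3.18, 3.21, 3.17 and 3.16 on Sle2c1_Bs and 3.20, 3.18, 3.24 and 3.29 on B6_Bs. All 8 B1a arrays lay below all 8 Bs arrays, the opposite order to Dnajb9. The B1a minus Bs difference passed in Sle2c1 (-0.17, SE 0.0481, adjusted p = 0.02) and not in B6 (-0.14, adjusted p = 0.0562). The difference between these differences was -0.03 (SE 0.068, adjusted p = 0.988), so the strains were not shown to differ. Without Sle2c1_Bs 2 the Sle2c1 call ended (adjusted p = 0.0588), and so it did under 4 of 14 alternatives. Of the other 4 probe sets none passed: 1419163_s_at differed by -0.21 and -0.14 in Sle2c1 and B6, while 1449372_at read 2.24 ± 0.0733 units in Sle2c1_B1a and 2.24 ± 0.0947 in Sle2c1_Bs. Between strains, 1449373_at read lower on all 4 Sle2c1_B1a arrays than on B6_B1a arrays (-0.45), with 1 array at the floor, and did not pass (adjusted p = 0.0919).

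Sdf2l1 encodes an ER protein that works with the J-domain protein ERdj3 (Dnajb11) to keep unfolded proteins soluble, and it is a sensitive target of ER stress in mouse cells. Its single probe set read 1.79, 1.80, 1.68 and 0.65 on Sle2c1_B1a, against 2.43, 2.29, 2.41 and 2.44 on Sle2c1_Bs. In B6 mice it read 1.78, 1.84, 1.59 and 1.54 on B6_B1a, against 2.51, 2.41, 2.52 and 2.53 on B6_Bs. Every B1a array lay below every Bs array, and Sle2c1_B1a 4 lay far below the rest of its group. Sdf2l1 was lower in B1a cells in Sle2c1 (-0.91, SE 0.195, adjusted p = 0.00326) and in B6 (-0.80, adjusted p = 0.00933). Without Sle2c1_B1a 4 the differences were -0.64 (SE 0.0779, adjusted p = 5.52e-05) and -0.80 (SE 0.0721, adjusted p = 3.19e-06). Without B6_Bs 1 and B6_Bs 3 the B6 call ended at an adjusted p of 0.0523, with the difference at -0.78. Dnajc3 and Sdf2l1 ran together over the 16 arrays (Pearson r = 0.875), and Dnajb9 ran against Sdf2l1 (r = -0.831). Both values describe arrays that share a split into B1a and Bs cells, and over deviations from the group means they were 0.496 and -0.253.

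**Figure D2:**
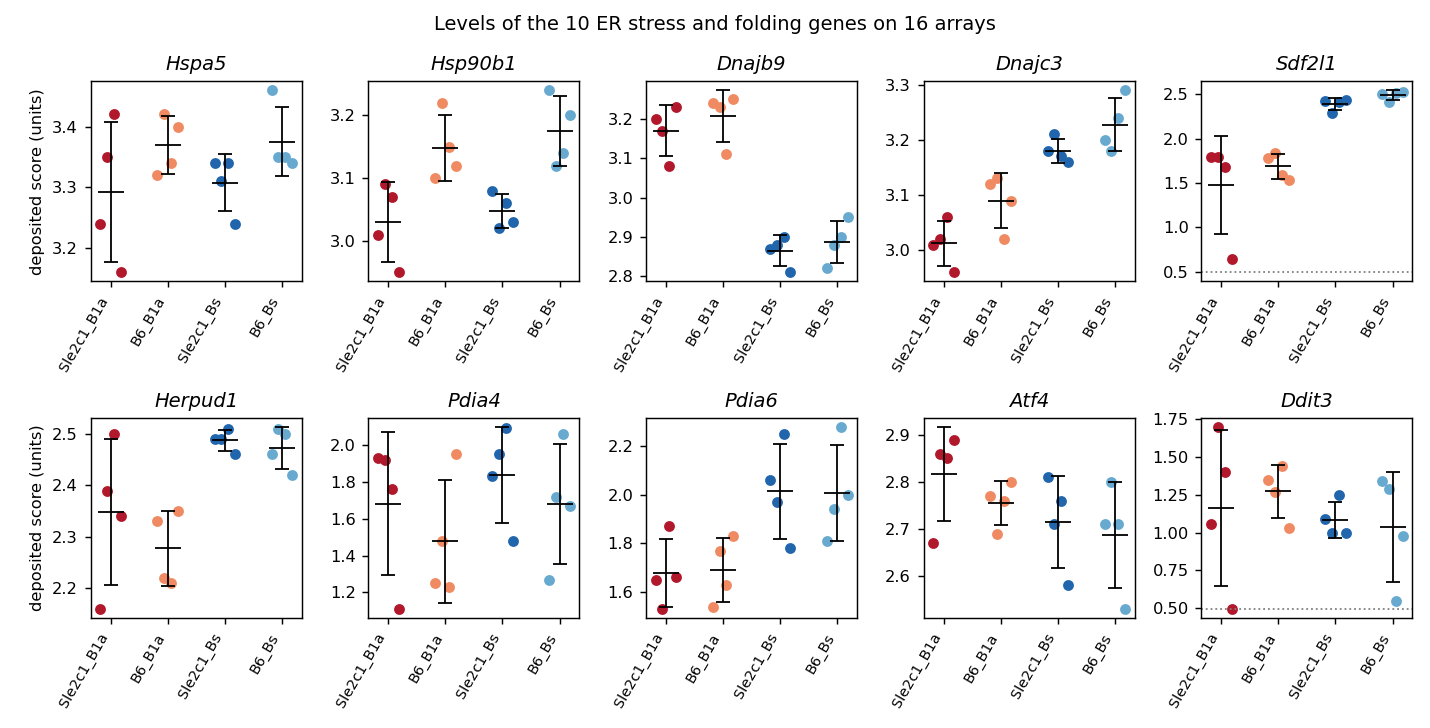
Deposited score (y axis, units differ by panel) of the probe set that stands for each of the 10 genes, on the 4 arrays of each group (points), with mean and SD (bars). The dotted line is the floor of 0.495. All B1a points lie above all Bs points for Dnajb9 and below them for Dnajc3 and Sdf2l1, while the groups overlap for Hspa5.

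Herpud1 encodes Herp, a ubiquitin-like membrane protein that helps assemble the degradation machinery of the ER. 1448185_at, which stood for the gene, read 2.16, 2.39, 2.50 and 2.34 on Sle2c1_B1a, 2.33, 2.22, 2.21 and 2.35 on B6_B1a, 2.49, 2.49, 2.51 and 2.46 on Sle2c1_Bs and 2.46, 2.51, 2.50 and 2.42 on B6_Bs. B6_B1a lay wholly below B6_Bs, where 22.4% of all features did not overlap. The B1a minus Bs difference of 1448185_at passed in neither strain (-0.14, adjusted p = 0.141 in Sle2c1 and -0.20, adjusted p = 0.053 in B6). Its strain differences were 0.07 in B1a and 0.01 in Bs cells (adjusted p = 0.631 and 1).

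The second probe set of Herpud1, 1435626_a_at, read 2.32, 2.42, 2.35 and 2.51 on Sle2c1_B1a, 2.09, 1.93, 1.76 and 2.04 on B6_B1a, 2.18, 2.29, 2.31 and 2.24 on Sle2c1_Bs and 1.97, 2.16, 2.33 and 2.14 on B6_Bs. Every Sle2c1_B1a array lay above every B6_B1a array, whereas the Bs groups overlapped. Over all features, the B1a groups of the strains did not overlap for 8.38%. In B1a cells 1435626_a_at was higher in Sle2c1 by 0.45 (SE 0.0861, adjusted p = 0.0094 over 35032 probe sets, of which 3.51% were called, exact permutation p = 0.0286). In Bs cells the strain difference was 0.11 (adjusted p = 1). The cell types were not shown to differ in this, the difference of the differences being 0.34 (SE 0.122, adjusted p = 0.45). The call in B1a cells ended with arrays centred on their median (0.32, adjusted p = 0.0514) and with only the 8 arrays compared (0.45, adjusted p = 0.053). It was the single call between strains among the 21 probe sets, and the other probe set of the gene did not share it. Macrophage markers were lower in the same Sle2c1_B1a arrays, with 7 of 16 past the test and none higher, and their part in the result was not tested.

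**Figure D3:**
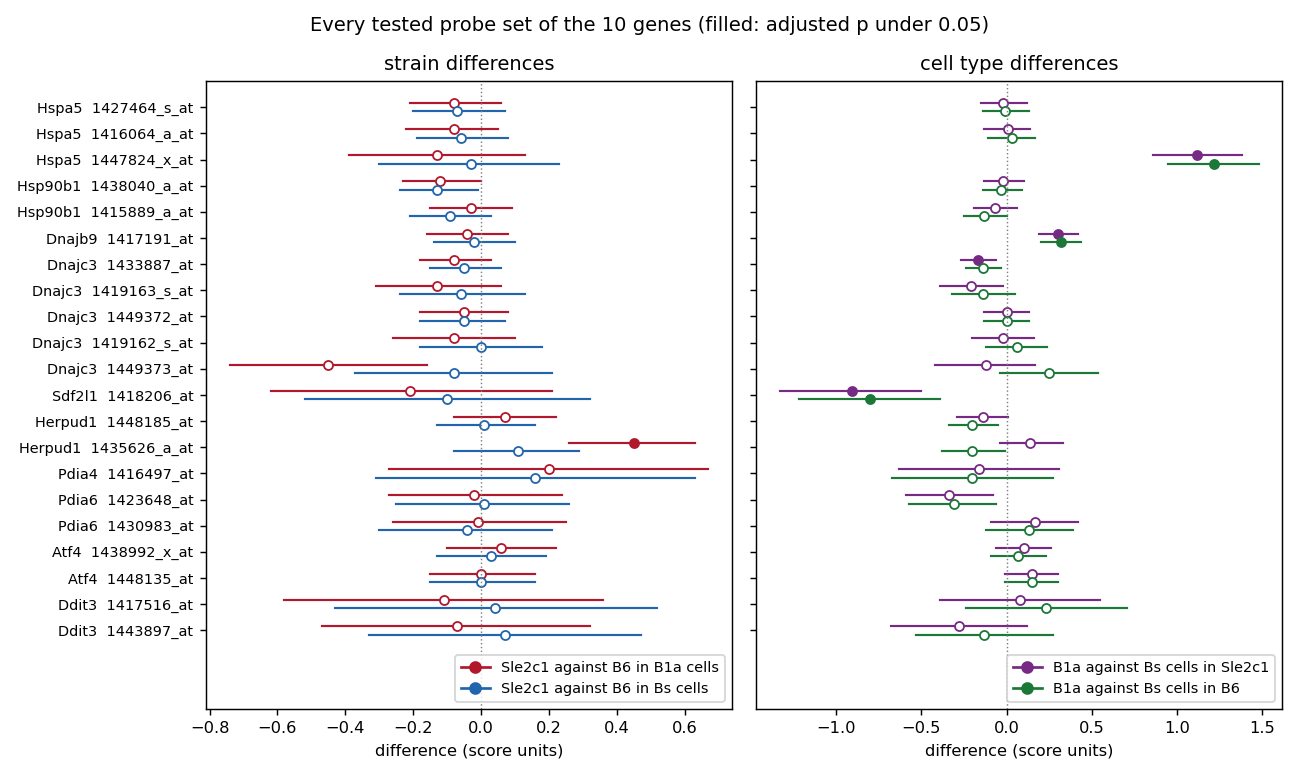
Differences with 95% intervals (x axis, score units) for each of the 21 probe sets of the 10 genes past the filter, between strains (left) and between cell types (right), filled where adjusted p was under 0.05. Herpud1 1435626_a_at stands out between strains in B1a cells, and Hspa5 1447824_x_at differs from the other Hspa5 probe sets between cell types.

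Pdia4 (ERp72) and Pdia6 (P5) are disulfide isomerases of the ER, and Pdia6 is also known to bind IRE1 and PERK. Pdia6 probe set 1423648_at read 1.65, 1.53, 1.87 and 1.66 on Sle2c1_B1a, 1.54, 1.77, 1.63 and 1.83 on B6_B1a, 2.06, 1.97, 2.25 and 1.78 on Sle2c1_Bs and 1.81, 1.94, 2.28 and 2.00 on B6_Bs. B1a arrays were mostly below Bs arrays, with 1 array of overlap in each strain. The difference in Sle2c1 only just passed (-0.34, SE 0.118, adjusted p = 0.0489), and it did not pass in B6 (-0.31, adjusted p = 0.0717). Leaving out single arrays ended the Sle2c1 call in 12 of 16 cases, with adjusted p as high as 0.152. Its second probe set was at the floor on 10 of 16 arrays and did not pass.

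Pdia4 probe set 1416497_at read 1.93, 1.92, 1.76 and 1.11 on Sle2c1_B1a, 1.25, 1.48, 1.23 and 1.95 on B6_B1a, 1.83, 1.95, 2.09 and 1.48 on Sle2c1_Bs and 1.27, 1.72, 2.06 and 1.67 on B6_Bs. Its arrays scattered widely within every group and all groups overlapped. Its differences of -0.20 to 0.20 over the 4 comparisons did not pass, and the 95% interval in B1a cells between strains was -0.27 to 0.67. The second probe set, 1450620_at, did not pass the filter and read above the floor on 2 arrays, both Sle2c1_B1a (1.10 and 1.42).

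Atf4 encodes the transcription factor whose translation PERK allows, so that its RNA level is an incomplete gauge of its activity. 1438992_x_at read 2.67, 2.86, 2.85 and 2.89 on Sle2c1_B1a, 2.77, 2.69, 2.76 and 2.80 on B6_B1a, 2.81, 2.71, 2.76 and 2.58 on Sle2c1_Bs and 2.71, 2.80, 2.71 and 2.53 on B6_Bs. All 4 groups overlapped. B1a minus Bs was 0.10 in Sle2c1 (adjusted p = 0.319) and 0.07 in B6 (adjusted p = 0.55), and 1448135_at differed by 0.15 in each strain without passing. A probe set of Atf4 that failed the filter, 1439258_at, was at the floor on 14 arrays.

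Ddit3 encodes CHOP, the factor downstream of ATF4 that is linked to death under lasting ER stress. 1417516_at read 1.06, 1.70 and 1.40 on 3 Sle2c1_B1a arrays and lay at the floor on Sle2c1_B1a 4, with 1.35, 1.27, 1.44 and 1.03 on B6_B1a, 1.09, 1.00, 1.25 and 1.00 on Sle2c1_Bs and 1.34, 1.29, 0.55 and 0.98 on B6_Bs. The values were low in all groups and overlapped. B1a minus Bs was 0.08 (interval -0.40 to 0.55, adjusted p = 0.823) in Sle2c1 and 0.23 (interval -0.24 to 0.71, adjusted p = 0.495) in B6. These intervals leave room for differences of either sign. The second probe set, 1443897_at, had 2 arrays at the floor and did not pass.

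Counted over the 10 genes, B1a cells of Sle2c1 mice had 1 gene higher (Dnajb9) and 3 lower (Sdf2l1, Dnajc3 and Pdia6) than Bs cells, where 25.8% of all 22727 features were called (11% higher and 14.7% lower). In B6 mice 1 was higher (Dnajb9) and 1 lower (Sdf2l1), where 21.3% were called (9.02% higher and 12.2% lower). The features lower in B6, 2783 with all arrays, numbered 4285 without B6_Bs 1, 1711 without B6_Bs 2, 1793 without B6_B1a 2 and 1788 without B6_B1a 3. Read against this background, the counts say little about the genes as a group. Their median differences were -0.0787 in Sle2c1 and -0.0825 in B6, beside -0.045 and -0.0525 over all features. Between strains 0 of 10 passed in B1a cells (3.38% of all features called, 1.93% higher and 1.45% lower, 1 member at an unadjusted p under 0.05 in limma) and 0 of 10 in Bs cells (0.154% of features and 0.131% of probe sets called, 1 member at an unadjusted p under 0.05). The members' medians were -0.0575 for B1a and -0.0075 for Bs, beside 0.025 and 0.015 over all features. For the difference between the strain effects in the cell types, 0 of 10 passed (0.431% of features and 0.462% of probe sets called, 0 at an unadjusted p under 0.05, smallest adjusted p = 0.983). The comparisons of strains share no arrays with each other, but each shares its arrays with the comparisons of cell types.

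**Figure D4:**
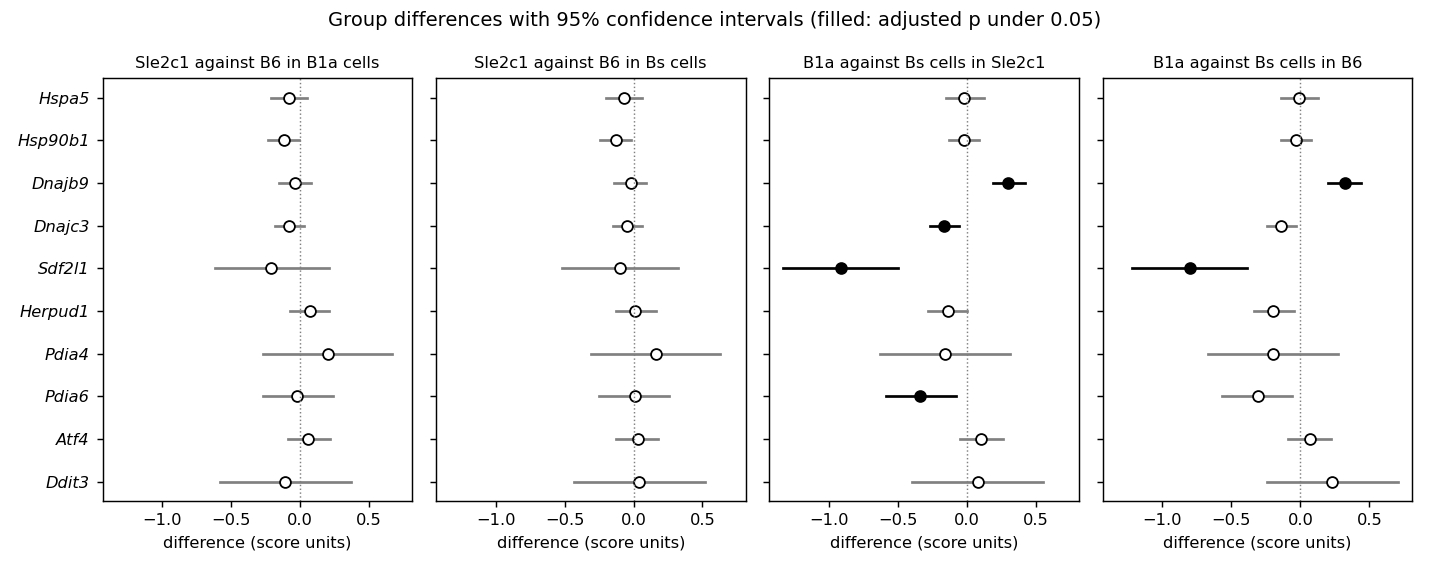
Differences (points, score units) with 95% intervals for the 10 genes in the 4 comparisons, filled where the adjusted p was under 0.05. Strain differences are all unfilled, while Dnajb9 lies to the right and Sdf2l1 to the left of 0 in both comparisons of cell types.

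Over 6998 genes above the floor on all 16 arrays, Hspa5 ran most closely with Hsp90b1 among the 10 genes (Pearson r = 0.798, second of all genes). The other members above the floor on all 16 arrays had r of -0.125 (Dnajb9) to 0.373 (Sdf2l1). Ddit3, with 1 array at the floor, was not among these genes. Its r with Hspa5 was 0.535, and 0.633 over deviations from the group means. The most similar genes outside the 10 were Secisbp2 (r = 0.803), Snrpd3 (0.797), Mob1a (0.791), Cct8 (0.787), Psma2 (0.785), Sdcbp (0.783), Mis12 (0.782) and Rdm1 (0.761). These are descriptions over 16 arrays that share groups and scaling. Over deviations from the group means, the r of Hspa5 with Hsp90b1 was 0.778.

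The wider secretory pathway was read from 6 lists of other genes, 75 in all with 71 tested: sensors and transcription factors, other chaperones, other isomerases and oxidases, ER-associated degradation, the translocon and signal sequence handling, and targets of the integrated stress response. Between cell types 11 were higher and 8 lower in B1a cells of Sle2c1 mice (26.8% past the test, beside 25.8% of all features), and 12 were higher and 7 lower in B6 (26.8%, beside 21.3%). The higher counts include genes at or near the floor in Bs cells, Atf3 in both strains and Chac1 and Creb3l2 in B6 (below). The median differences of the 71 genes were 0.065 in Sle2c1 and 0.06 in B6. Between strains 0 were higher and 1 lower in B1a cells (1.41%, beside 3.38% of all features). The lower one was Creb3l2, an ATF6-like factor (-0.74, adjusted p = 0.0415). With Sle2c1_B1a 4 at the floor, this difference is a lower limit in size. In Bs cells 0 of 71 passed. For the difference between the strain effects in the cell types, 0 of 71 passed. Genes below that passed in 1 strain alone were therefore not shown to differ between strains.

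Of the 71 genes, Dnajb11 differed most downward in both strains. Dnajb11, on the list of other chaperones and the ERdj3 partner of Sdf2l1, read 2.42, 2.32, 2.32 and 2.31 units on Sle2c1_B1a, against 3.33, 3.28, 3.28 and 3.31 on Sle2c1_Bs. In B6 mice it read 2.27, 2.37, 2.25 and 2.36 on B6_B1a, against 3.47, 3.35, 3.34 and 3.36 on B6_Bs. The groups lay far apart, as for Sdf2l1, with differences of -0.96 (SE 0.0521, adjusted p = 8.16e-09) in Sle2c1 and -1.07 (adjusted p = 3.08e-09) in B6. Dnajc10 (ERdj5), a J-domain protein that reduces disulfides before degradation, was lower by its best-measured probe set (-0.79 and -0.73, adjusted p = 1.64e-08 and 4.22e-08). Its other 2 probe sets did not pass, with differences of 0.00 and -0.19 in Sle2c1 and 0.03 and 0.04 in B6. The lectin chaperone Calr was lower by its brightest probe set (-0.18 and -0.16, adjusted p = 0.0135 and 0.0279), and its other probe sets did not pass. Manf, a secreted ER stress factor, was higher (0.25 in each strain, adjusted p = 0.00679 and 0.0096). In all, 2 were higher and 5 lower of 14 in Sle2c1 (25.8% of all features called), and 1 higher and 4 lower in B6 (21.3% called). Among J-domain genes the directions were mixed, with Dnajb9 higher and Dnajb11 lower in both strains.

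Of the sensors and factors, Atf6 was higher in B1a cells (0.58 and 0.43, adjusted p = 2.83e-05 and 5.25e-04 in Sle2c1 and B6), and its other 2 probe sets passed in the same direction. Eif2ak3, which encodes PERK, was lower in B6 (-0.37, adjusted p = 0.0173) and did not pass in Sle2c1 (-0.21, adjusted p = 0.124). Creb3l2 was higher in B1a cells of B6 mice (at least 0.89, adjusted p = 0.00324, 1 B6_Bs array at the floor). Ern1 did not pass in either strain. Xbp1 read 2.91 ± 0.0648 in Sle2c1_B1a, against 2.82 ± 0.121 in Sle2c1_Bs, and 3.01 ± 0.0634 in B6_B1a, against 2.96 ± 0.176 in B6_Bs (SD, n = 4). Its differences of 0.09 and 0.05 did not pass (adjusted p = 0.478 and 0.723). Its other probe sets disagreed: 1420012_at was lower in B1a cells (-0.59 and -0.64), and 1437223_s_at was higher in Sle2c1 (0.26, adjusted p = 0.0209). None of these values tells spliced from unspliced Xbp1.

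The oxidase Ero1a, which drives disulfide formation, was higher in B1a cells (0.29 and 0.34, adjusted p = 1.97e-04 and 5.09e-05). In B6 mice Ero1b (0.21), Prdx4 (0.16) and P4hb (0.16) passed as well. P4hb only just passed (adjusted p = 0.0498), and its B6 groups overlapped. Ero1b read 3.42 ± 0.0435 in Sle2c1_B1a, against 3.26 ± 0.0656 in Sle2c1_Bs, the same direction as in B6. Among translocon genes, the signal peptidase subunit Spcs3 (0.27 and 0.31) and the translocon-associated Ssr4 (0.29 and 0.26) were higher in both strains, and 0 of 13 were lower in either. In Sle2c1 Srpr (0.20) and Spcs2 (0.17) were higher as well. Of 13 degradation genes, the mannosidase-like Edem3 was lower in both strains (-0.19 and -0.20, adjusted p = 0.0211 and 0.0237) and Edem1 in Sle2c1 (-0.19, adjusted p = 0.0152). Os9, a lectin of the same pathway, was higher in Sle2c1 (0.26, adjusted p = 0.0346).

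Of the 16 targets of the integrated stress response, 3 were higher and 1 lower in Sle2c1 (25.8% of all features called). In B6, 4 were higher and 1 lower (21.3% of all features called). The higher counts include Atf3 in both strains and Chac1 in B6, which were at or near the floor in Bs cells. Atf3, a stress-induced factor downstream of ATF4, read 1.63, 1.98, 1.98 and 1.17 on Sle2c1_B1a and 1.63, 1.92, 2.02 and 2.20 on B6_B1a. Among Bs arrays 1 of B6_Bs read 0.52 and the others were at the floor. Since it passed the filter through the B1a arrays, it had to differ, and its differences of at least 1.19 in Sle2c1 and at least 1.44 in B6 are a description. Atf4 and Ddit3 themselves did not pass. Psat1, a serine synthesis enzyme, was lower in B1a cells (-0.61 and -0.86, adjusted p = 0.00444 and 4.12e-04), while Phgdh of the same route was higher in Sle2c1 (0.28, adjusted p = 0.0198). Chac1 (at least 0.50, all 4 B6_Bs arrays at the floor) and Shmt2 (0.34) were higher in B6. Mast cell markers were higher in B1a preparations of both strains (3 of 7 called in Sle2c1 and 6 of 7 in B6). These mast cell counts are a description. All 6 called in B6 had 2 to 4 of the 4 B6_Bs arrays at the floor. Mcpt4, Hdc and Tpsb2 were at the floor on all Sle2c1_Bs arrays. Macrophage markers were higher in B6 (9 of 16 higher and 2 lower) but not as a group in Sle2c1 (2 higher and 5 lower). B cell markers were lower in B1a preparations, 6 of 7 in Sle2c1 and 5 of 7 in B6, with summed levels of 20.3 to 21.3 units in Sle2c1_B1a, 20.5 to 21.1 in B6_B1a, 22.4 to 23 in Sle2c1_Bs and 22.1 to 23.4 in B6_Bs. Of 8 T cell markers, Cd3g and Cd3d were higher in B6_B1a (at least 1.09 and 0.76). Both are a description, with 3 and 4 of the 4 B6_Bs arrays at the floor. Cd8a was lower in B1a cells of both strains (-0.94 in Sle2c1 and -0.67 in B6). The T cell sums were 5.38 to 10 in Sle2c1_B1a, 8.48 to 10.4 in B6_B1a, 5.58 to 6.54 in Sle2c1_Bs and 6.5 to 7.35 in B6_Bs. The part of these other cells in the differences between cell types, Dnajb9 included, was not tested.

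**Figure D5:**
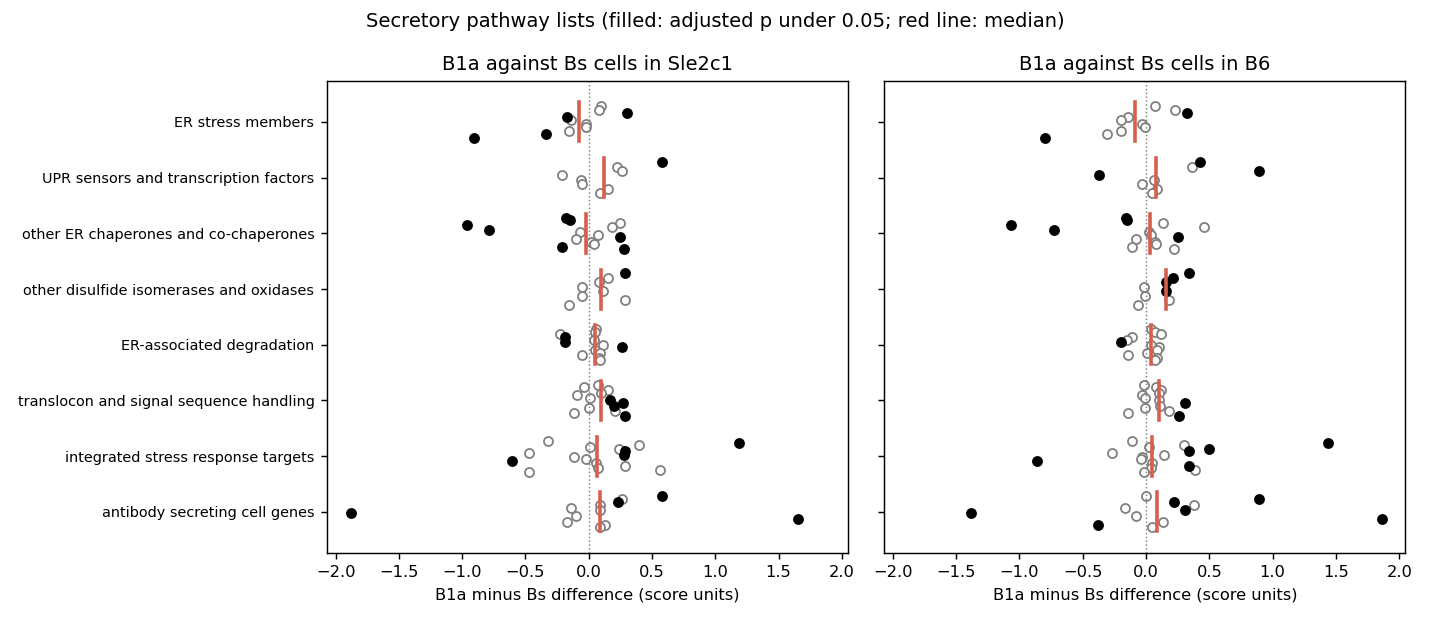
B1a minus Bs differences (x axis, score units) of the 10 genes and of each pathway list in Sle2c1 (left) and B6 (right), 1 point per gene, filled where adjusted p was under 0.05, with a red line at the list's median. Genes past the test lie on both sides of 0 in most lists, and the antibody list spans the widest range.

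Genes of antibody secretion gave the setting for these levels. Prdm1, which encodes Blimp-1, read 3.04, 2.94, 2.79 and 3.14 on Sle2c1_B1a, against 1.31, 1.31, 1.02 and 1.65 on Sle2c1_Bs. In B6 mice it read 3.00, 2.89, 2.82 and 2.84 on B6_B1a, against 1.24, 1.06, 0.53 and 1.28 on B6_Bs. It was higher in B1a cells of both strains without overlap, by 1.65 (SE 0.157, adjusted p = 2.71e-06) and 1.86 (adjusted p = 9.59e-07). Jchain, the joining chain of secreted IgM and IgA, went the opposite way, at 1.96, 2.19, 1.57 and 2.03 on Sle2c1_B1a, against 3.79, 3.83, 3.80 and 3.83 on Sle2c1_Bs, and 2.58, 2.68, 2.53 and 2.31 on B6_B1a, against 3.80, 3.95, 3.94 and 3.92 on B6_Bs. Its differences were -1.88 (adjusted p = 1.72e-08) and -1.38 (adjusted p = 5.61e-07). Between strains, 1 of 12 genes tested on this list was higher and 2 were lower in B1a cells of Sle2c1 mice (3.38% of all features called). The surface receptor Slamf7 was the higher one, at 2.11 ± 0.184 in Sle2c1_B1a against 1.62 ± 0.171 in B6_B1a. The lower ones were Creb3l2, given above, and Jchain (-0.59, adjusted p = 0.00797).

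Irf4, a factor of B cell activation and plasma cell fate, was higher in B1a cells of B6 mice (0.31, adjusted p = 0.00414) and did not pass in Sle2c1 (0.09, adjusted p = 0.315). Ell2, an elongation factor that favours secreted immunoglobulin message, was higher in both (0.23 and 0.22, adjusted p = 0.00255 and 0.00479). Ighm, the IgM heavy chain, read 3.34 ± 0.0507 in Sle2c1_B1a, against 3.49 ± 0.0816 in Sle2c1_Bs, and 3.38 ± 0.0574 in B6_B1a, against 3.55 ± 0.0834 in B6_Bs, without passing (adjusted p = 0.0931 and 0.0631). The call of Cd28, a costimulatory receptor that is also on the T cell list, rests on 3 Sle2c1_B1a arrays, with the remaining 1 and all 4 Sle2c1_Bs arrays at the floor (a difference of at least 0.58). Slamf7 was lower in B1a than in Bs cells of B6 mice (-0.38, adjusted p = 0.0179). Of 12 genes tested on this list, 3 were higher, Cd28 included, and 1 lower in B1a cells of Sle2c1 mice (25.8% of all features called). In B6, 4 were higher and 2 lower (21.3% of all features called). For the difference between the strain effects in the cell types, 0 of 12 passed, so calls in 1 strain alone do not show that strains differ. Calls on this list went both ways in each strain, as did those of the 10 folding genes.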

How the data were processed

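RNA of 16 samples was amplified with the NuGEN Ovation system and hybridised to Affymetrix mouse arrays, per the labels' protocols. The authors deposited 1 table of scores for 45101 probe sets (64 of them array controls). The tool, log base, centring and scaling behind these scores are not given in the sources used here. Hybridisation controls cre and bioB lay 0.697 to 1.67 units apart, and log2 was not assumed. No counts underlie the score, so the number of arrays limits the precision.

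Values below the floor of 0.495 were raised to it. A probe set was kept if 4 or more arrays read it over their own 40th percentile (35032 were), and each gene was represented by its brightest probe set, for 22727 features. Names came from the platform annotation (34958 probe sets with 1 gene, 932 with several, 9211 with none), updated through RefSeq. The 4 group means were fitted in 1 model with limma 3.58.1 in R 4.3.3 (two-sided, Benjamini-Hochberg over all features, threshold 0.05), checked on simulated data. Single genes also had exact two-sided permutation tests. Each array in turn was left out, and floor, filter, probe set rule, scaling, test form, arrays in the fit and replicate blocks were varied. Replicate numbers were checked for pairing: same-numbered Sle2c1_Bs and B6_Bs arrays deviated together in 4 of 4 pairs (r 0.112 to 0.621). The same number gave the highest r in 3 of these 4. For number 2 another number gave 0.121, and for number 4 the values were close (0.431 against 0.426). B1a pairs between strains had r of -0.0111 to 0.167 and were not taken as pairs. The pathway genes named are up to 4 per list and comparison with the smallest adjusted p, and Xbp1, Prdm1, Irf4, Jchain and Ighm regardless, with Ern1 and further probe sets added after their values were seen. The members and lists were chosen with earlier results of these data known. Protein sequences were not used here.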

Additional observations from a re-analysis of the deposited data

Results flagged for a closer look

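In 83 groups of 4 arrays, over the 21 probe sets and leaving out 1 group whose values were all at the floor, 8 had 1 array far from the others by Dixon's criterion at the 95% level. Chance gives about 1 in 20 groups, but 3 of the 8 cannot be set against that rate, since the other 3 arrays were tied at the floor and any value above it then meets the criterion. Sdf2l1 read 0.65 units on Sle2c1_B1a 4, against 1.68 to 1.80 on the rest of its group, and 2.41 on B6_Bs 2, against 2.51 to 2.53. Dnajb9 read 3.11 on B6_B1a 3, against 3.23 to 3.25, which is still above every Bs array. Hspa5 read 3.46 on B6_Bs 1, against 3.34 to 3.35. Atf4 probe set 1448135_at read 2.63 on Sle2c1_B1a 1, against 2.80 to 2.83. The 3 with ties at the floor were Hspa5 probe set 1447824_x_at, at 0.63 on B6_Bs 1, and Pdia6 probe set 1430983_at, which read 0.57 on Sle2c1_Bs 4 and 0.74 on B6_Bs 3.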

How the results depend on the processing

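Dnajb9 was called in both comparisons of cell types under all 14 alternatives, and Sdf2l1 in Sle2c1 under all 14 and in B6 under 13 of 14. The count of members lower in B1a cells of B6 mice, 1 as reported, was 3 with the floor at 1 unit, 3 with no filter and 3 with trend and robust estimation (Dnajc3 and Herpud1 added). It was 2 with only the arrays compared, 0 without B6_Bs 1 and B6_Bs 3, and 4 at a threshold of 0.10, and 1 to 2 with single arrays left out. The count lower in Sle2c1, 3 as reported, was 1 with the mean of all probe sets and 1 without Sle2c1_B1a 4, Sle2c1_Bs 3 and B6_Bs 3 together, and 1 to 3 with single arrays left out, the 1 being without Sle2c1_Bs 2. Averaging probe sets gave 2 higher in each strain. It moved Hspa5 from -0.02 to 0.37 in Sle2c1 and from -0.01 to 0.41 in B6. This move rests on 1447824_x_at, which had to differ, and is a description. Without a floor, the B6 difference of Hspa5 probe set 1447824_x_at did not pass (1.95, adjusted p = 0.429). Counted by gene, the calls of members between strains stayed at 0 under all alternatives run. Taken on its own, Herpud1 probe set 1435626_a_at was called between strains in B1a cells under 10 of 12 alternatives. With the replicate block, Dnajb9 differed by 0.30 (limma adjusted p = 0.0024) and Sdf2l1 by -0.91 (adjusted p = 0.00467) in Sle2c1. The block, in the whole fit or within each cell type, changed no count of members. The labels do not say what the numbers mean, and arrays matched best by number in 3 of 4 Bs pairs between strains. Over all features, the strain calls in B1a cells, 439 higher and 329 lower as reported, were 255 and 183 with no floor and 280 and 122 with only the arrays compared. Those in Bs cells, 28 and 7, were 11 and 5 after quantile normalization, 12 and 5 with arrays centred on their median, 51 and 8 without the same 3 arrays, 17 and 5 without B6_Bs 2 and 47 and 17 without B6_Bs 3. The features higher in B1a cells of Sle2c1 mice, 2508 as reported, were 1580 with no floor and 1639 with arrays centred on their median. Those lower in B6, 2783, ranged over 1711 to 4285 with single arrays left out. Calls on the difference of differences, 98 in all (60 higher and 38 lower), were 5 and 5 with trend and robust estimation. Differences of Ddit3 and Pdia4 are limited by low or scattered signal. The cause of these changes was not tested.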
